A study of Mus musculus with 2 samples.

Results

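Cycling stromal cells of the bone marrow were 179 of 7332 single cells from the femurs of 2 mice, with 75 in Mouse #1 and 104 in Mouse #2. They were chosen from their own transcripts. Barcodes with 1000 or more genes and no more than 15% of UMIs from mitochondrial genes were taken as cells, a UMI being a molecular tag by which each captured transcript is counted once. A member had at least 5 UMIs of Mki67, Top2a, Cdk1 and Birc5 together, and at least 10 UMIs per 10000 of the matrix genes Sparc and Col1a2. It also had at most 1 UMI of the leukocyte gene Ptprc, at most 1 UMI of the endothelial gene Cdh5, fewer than 100 UMIs per 10000 of the hemoglobin genes Hba-a1 and Hbb-bs, and at most 2 UMIs of Cd79a and Mpo, genes of B cells and granulocyte progenitors. These 12 genes fixed the membership, so their levels are given as a description only. Cells that met the same limits on matrix, blood and endothelial genes, with any number of cycle UMIs, are called stromal-gate cells.

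Both mice were Cxcl12(GFP/+); Cxcl12-iCreER; R26R(tdTomato/+), received tamoxifen at postnatal day 21 and were analysed at postnatal day 28. They formed 1 group, so every comparison was between classes of cells within the mice. In both, GFP stood in 1 copy of Cxcl12, the recombinase came from a single line of a bacterial artificial chromosome transgene, and the genetic background was mixed. The distal epiphyseal growth plates were removed before enzymatic dissociation, and GFP+ cells were sorted, although 1 protocol field names tdTomato+ cells. With 2 mice, p-values measure the spread between those animals, and an exact permutation test of 2 sums against 2 could not go below a two-sided p of 0.333.

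The cell cycle copies the chromosomes in S phase and divides them in mitosis. Cyclin-dependent kinases drive each step, and inhibitors of the INK4 and Cip/Kip families hold them back. In the marrow, reticular stromal cells that secrete CXCL12 and stem cell factor keep the niche of blood stem cells and are mostly quiescent, whereas preosteoblasts divide before they lay down bone matrix.

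Many genes of late cell cycle phases carry a cell cycle genes homology region (CHR) near the transcription start, often with CCAAT boxes upstream of it, and genes of S phase often carry E2F sites. The promoters of 3 of the genes that chose the members are shown because they hold these letters. Each is the 250 bases before the start, from RefSeq on GRCm38.p6, with every match to a CHR element, a CCAAT box or an E2F element on either strand in capitals. The CHR element was searched as TTTGAA and, in its variant form, as TTCGAA. The CCAAT box was searched by the letters of its name, and the E2F element as TTTCCCGC, TTTCGCGC, TTTGCCGC or TTTGGCGC. They lie at chr7:135716380-135716629 (minus strand) for Mki67, at chr11:99024190-99024439 (minus strand) for Top2a and at chr10:69352913-69353162 (minus strand) for Cdk1.
Mki67: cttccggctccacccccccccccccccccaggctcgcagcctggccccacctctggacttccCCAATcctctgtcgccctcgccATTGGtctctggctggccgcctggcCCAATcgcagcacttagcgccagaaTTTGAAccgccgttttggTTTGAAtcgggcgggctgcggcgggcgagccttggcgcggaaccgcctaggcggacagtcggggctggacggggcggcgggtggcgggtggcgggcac
Top2a: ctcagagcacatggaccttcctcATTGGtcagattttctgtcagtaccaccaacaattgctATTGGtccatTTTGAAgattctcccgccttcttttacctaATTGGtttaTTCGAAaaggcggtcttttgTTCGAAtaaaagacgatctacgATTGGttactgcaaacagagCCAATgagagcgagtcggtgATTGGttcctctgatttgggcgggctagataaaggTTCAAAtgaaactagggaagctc
Cdk1: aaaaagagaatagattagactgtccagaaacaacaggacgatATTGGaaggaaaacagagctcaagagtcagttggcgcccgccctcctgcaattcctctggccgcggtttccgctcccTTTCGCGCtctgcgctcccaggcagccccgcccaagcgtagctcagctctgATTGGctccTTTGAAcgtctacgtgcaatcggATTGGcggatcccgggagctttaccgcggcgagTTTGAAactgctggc
Counted in windows of 250 bases before to 50 after the start, Mki67 held 2 CHR elements and 3 CCAAT boxes, Top2a held 4 and 6, and Cdk1 held 2 and 3 with 1 E2F element. Birc5 held none of the 3 motifs in its window. Of the 79 cell cycle genes looked up, 65 had an entry, with 72 promoters. A CHR element and a CCAAT box occurred together in 47.2% of these promoters, against 7.52% of all 32851 promoters. E2F elements occurred in 16.7% and 2.26%. The window of Acta2, a smooth muscle actin used below as a marker, held none of the 3 motifs. It also held no match to a strict CArG box, searched as CC, 6 letters of A or T, and GG. This search misses CArG elements with a G or C in the core, so it does not show that Acta2 lacks them. These matches describe letters and are not measured binding sites.

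Cycling cells were more frequent among stromal cells with preosteoblast transcripts than among those with reticular transcripts, in both mice. Each stromal-gate cell was typed by whether its UMIs of 7 preosteoblast genes (Alpl, Mmp13, Ibsp, Kcnk2, Limch1, Spp1 and Bglap) outnumbered those of 9 reticular genes (Adipoq, Lpl, Hp, Gas6, Cp, Gdpd2, Agt, Esm1 and Lepr), or the reverse. In Mouse #1, 41 of 318 preosteoblast-type cells were cycling, or 12.9% (exact 95% binomial interval 9.41 to 17.1%), against 34 of 1525 reticular-type cells, or 2.23% (1.55 to 3.10%). In Mouse #2 the shares were 73 of 743, or 9.83% (7.78 to 12.2%), and 31 of 2938, or 1.06% (0.718 to 1.49%). The intervals of the types did not overlap in either mouse, and they cover counting error only. With so few mice, the shares were not tested.

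**Figure D1:**
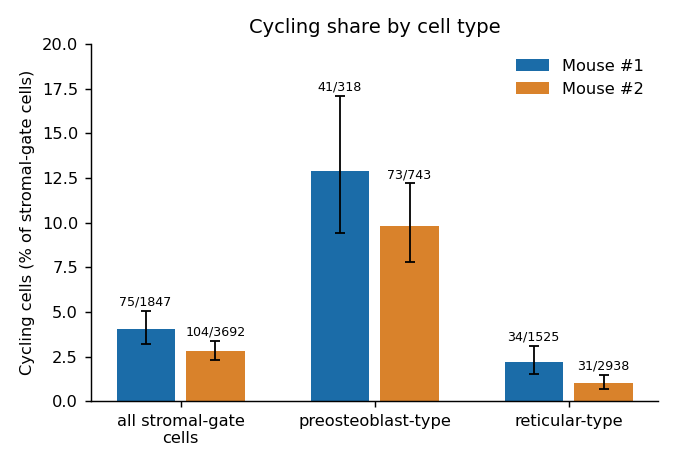
Share of stromal-gate cells (%) that were cycling, by type and mouse, with exact 95% binomial intervals as error bars and cell numbers above the bars. The preosteoblast-type bars (12.9 and 9.83%) stand above the reticular-type bars (2.23 and 1.06%) in both mice.

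Depth did not change this order. Members were deeper than the cells they came from, with medians of 22076 and 22381 UMIs against 15923 and 16928 in non-cycling preosteoblast-type cells and 12378 and 11513 in non-cycling reticular-type cells. After each cell was thinned to 5000 UMIs, 2 or more cycle UMIs were found in 12.8% and 8.48% of preosteoblast-type cells and in 2.68% and 1.20% of reticular-type cells. Thinning left out 166 and 326 stromal-gate cells below that depth. Preosteoblast-type cells made up 54.7% and 70.2% of members but 13.8% and 16.8% of stromal-gate cells with 0 cycle UMIs, which are called non-cycling. In all, members were 4.06% (3.21 to 5.06%) and 2.82% (2.31 to 3.40%) of stromal-gate cells.

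The number of cycle UMIs ranged widely among members. The median was 34 in Mouse #1 and 30 in Mouse #2, and the highest were 251 and 353. Just inside the threshold stood 2 and 7 members with 5 UMIs, and just outside 4 and 3 stromal-gate cells with 4 UMIs. Mki67 was detected in 73 of 75 and 99 of 104 members, Top2a in 67 and 95, Birc5 in 69 and 87, and Cdk1 in 61 and 81. Blood cells of the same libraries cycled more often, since 38.4% and 34.0% of cells in the blood gate reached 5 cycle UMIs.

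Some members did not match a single stromal identity. Several results that rest on them are also given without them, and the others are given with all members only. Rgs5, a pericyte gene proposed as a marker of these cells, had 852 UMIs in 5 members of Mouse #1 and 10 UMIs in 2 members of Mouse #2. A single reticular-type member of Mouse #1 held 848 of them, together with 373 UMIs of Acta2 and 1 of eGFP, at 80171 UMIs in all. Rgs5 was therefore no general marker of the members. Blood transcripts above 10 UMIs per 10000 occurred in 5 members of each mouse, of which 4 in each were reticular-type. The leading genes there were S100a8, a neutrophil gene, in 6 of these barcodes, Car1, an erythroid gene, in 2 deep barcodes of Mouse #2, and Pf4, a platelet gene, in 1, and the last barcode held 1 UMI of S100a8. Scrublet scores, by which likely doublets are ranked, were among the highest 60 and 168 of the libraries in 2 and 5 members. Without the barcodes with blood transcripts, cycling shares were 12.7% and 9.73% of preosteoblast-type cells and 2.00% and 0.926% of reticular-type cells. Of the 7 barcodes that were cells in both libraries, 1 was a member, in 1 library only.

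Genes of DNA replication and of mitosis were higher in the summed counts of members than in those of either non-cycling class, in both mice, for each of the 75 genes on 8 cell cycle lists. These genes go with the rule and were not tested. Levels are UMIs per 1000000 UMIs of a summed class (CPM). The 15 genes of the replication origin and fork, which license and copy DNA, summed to 892 CPM in Mouse #1 and 1281 in Mouse #2, against 126 and 120 in non-cycling preosteoblast-type cells. The 12 genes of the spindle and cytokinesis summed to 1819 and 1360 CPM, against 16.9 and 12.2. The kinetochore list, which holds the genes that attach chromosomes to the spindle, stood at 1478 and 1012 CPM, against 43.6 and 37.5. Members of Mouse #1 thus had the higher mitotic sums and members of Mouse #2 the higher replication sums.

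Single genes did not all share the order of the mice seen in the sums. Pcna, the sliding clamp of the replication fork, was at 96.9 and 189 CPM in cycling preosteoblast-type cells and at 230 and 240 in cycling reticular-type cells. Rrm2, a subunit of ribonucleotide reductase, was at 87.5 and 184 CPM and at 324 and 289. Cdc20, an activator of the anaphase-promoting complex, was at 332 and 92.0 CPM and at 178 and 156. Cdc20 thus differed between the mice more in the preosteoblast-type members than in the reticular-type ones. Cenpf, a kinetochore protein, was at 571 and 279 CPM and at 322 and 322, and the ubiquitin ligase partner Ube2c at 429 and 245 CPM and at 386 and 411. Non-cycling cells were at 3.63 CPM or lower for Rrm2, Cdc20, Cenpf and Ube2c.

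Each member was placed by its UMIs of 21 replication genes and of 32 mitosis genes. More mitosis than replication UMIs were found in 55 of 75 members of Mouse #1, or 73.3% (61.9 to 82.9%), and in 63 of 104 of Mouse #2, or 60.6% (50.5 to 70.0%). The median member had 11.1 and 21.8 replication UMIs per 10000 and 37.3 and 28.7 mitosis UMIs per 10000. In the plot of both sums, many members lie well above the diagonal with few replication UMIs, and a smaller number lie below it. The lists differ in size and in the abundance of their genes, so the diagonal is no phase boundary. Both types were spread over both regions, with more mitosis UMIs in 78.0% and 60.3% of preosteoblast-type members and in 67.6% and 61.3% of reticular-type members. Their intervals overlapped in each mouse.

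**Figure D2:**
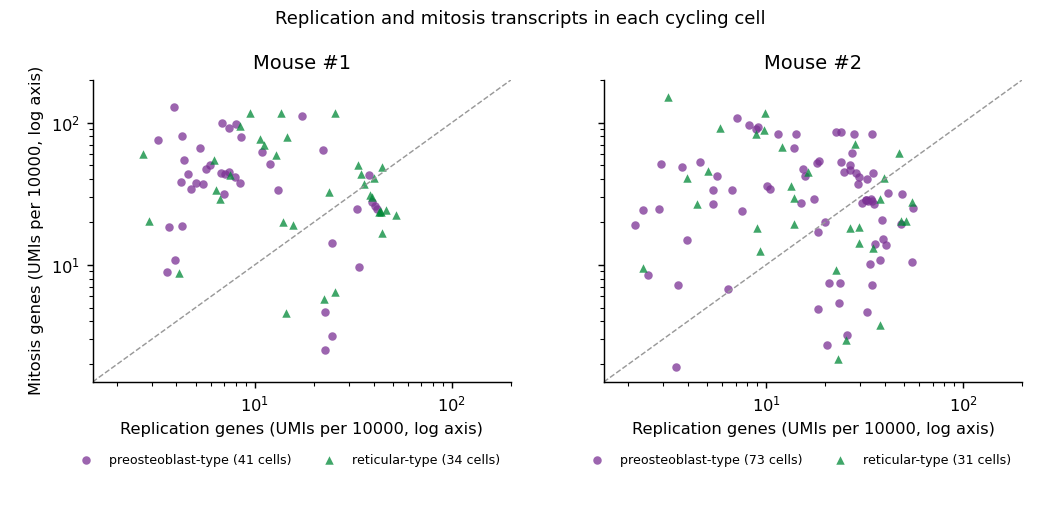
Mitosis UMIs against replication UMIs per 10000 in each cycling cell (both axes logarithmic), 1 panel per mouse, circles for preosteoblast-type and triangles for reticular-type members. The dashed line marks equal values, and 55 of 75 and 63 of 104 members lie above it.

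Within a type, members were set against non-cycling cells of that type, so that the numbers of cells of each type did not enter. The reticular comparison was added after the data were seen. Counts were summed per mouse and class and tested with the quasi-likelihood test of edgeR, with Benjamini-Hochberg adjustment over all genes tested. A gene was called at an adjusted p under 0.05, and folds are given as log2 of cycling over non-cycling, with their standard error (SE). In preosteoblast-type cells (41 and 73 cycling against 216 and 547 non-cycling), 638 of 10641 genes were higher (6%) and 135 lower (1.27%). With the mouse as a block these were 932 (8.76%) and 504 (4.74%), which is 1436 calls in place of 773. In reticular-type cells (34 and 31 against 1341 and 2704), 1422 of 12369 genes were higher (11.5%) and 989 lower (8%), and with the block 1334 (10.8%) and 985 (7.96%). Without the barcodes with blood transcripts, 1224 of 12361 genes were higher in reticular-type members and 893 lower. Leaving them out took the UMIs of these members from 788059 and 982856 to 708635 and 693952. Without the Rgs5-rich barcode, 1282 of 12344 genes were higher and 955 lower. The difference between the effects in the types was not tested, and the reticular sums held more cells on the non-cycling side.

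The 10 largest rises in preosteoblast-type members were all small in the non-cycling sums, at 0.372 CPM or lower in each mouse. They included Melk, at 39.5 and 54.5 CPM in the cycling class, the mitotic kinase Pbk at 54.0 and 108 CPM, the DNA glycosylase Neil3 at 38.6 and 55.6 CPM and the replication-dependent histone gene Hist1h3b at 6.86 and 36.3 CPM. Melk and Pbk were also among the largest rises in reticular-type members, at 62.2 and 42.7 CPM and at 122 and 127 CPM. Stfa2l1 and BC100530, also on that list, fell below the filter on low counts when the barcodes with blood transcripts were left out. Non-cycling cells were chosen for 0 UMIs of Mki67, Top2a, Cdk1 and Birc5. Genes transcribed together with these can be low there by that choice, and the counts of higher genes above may include them.

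Mmp9, Cxcl9 and Slfn5 were among the genes that fell most in preosteoblast-type members. Mmp9, a gelatinase, was at 38.6 and 5.68 CPM in members and 375 and 223 in non-cycling cells, a log2 fold of -3.91 (SE 0.618, edgeR adjusted p = 0.00871). The chemokine Cxcl9 was at 0.858 and 6.81 CPM against 59.5 and 97.7, a log2 fold of -4.22 (SE 0.534, edgeR adjusted p = 0.003). Slfn5, an interferon-inducible gene, was at 4.29 and 2.84 CPM against 56.9 and 32.5, with -3.70 (SE 0.439, edgeR adjusted p = 0.00226). It was lower in reticular-type members too, at 7.61 and 13.2 CPM against 80.1 and 71.5, with -2.86 (SE 0.257, edgeR adjusted p = 0.000762). The secreted factor Angptl1 fell most there, at 2.54 and 3.05 CPM against 39.1 and 55.5, with -4.11 (SE 0.464, edgeR adjusted p = 0.00208). Fam43a, Cpne8, Cbln1, Cbln2 and the collagen gene Col6a5 were on the same list, with log2 folds from -3.07 to -2.61. For Mmp9, Cxcl9, Slfn5 and Angptl1 the cycling and non-cycling sums did not overlap. These genes were picked as large falls of the same direction in both mice, which makes such a gap likely. The gap is therefore no further evidence.

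Of the 19 brakes and G1 genes, the INK4 inhibitors Cdkn2c and Cdkn2a rose in members of both types. Among all genes, 6% were called higher in preosteoblast-type and 11.5% in reticular-type members. Cdkn2c, which encodes p18, an inhibitor of the G1 kinases, was at 69.5 and 84.0 CPM in preosteoblast-type members and 10.1 and 8.46 in non-cycling cells, a log2 fold of 3.04 (SE 0.209, edgeR adjusted p = 0.00016). In reticular-type members it was at 110 and 117 CPM against 9.43 and 10.2, with 3.49 (SE 0.151, edgeR adjusted p = 3.15e-05). Cdkn2a, which encodes p16 and ARF, was at 42.0 and 28.4 CPM against 9.61 and 10.6 in preosteoblast-type cells, with 1.72 (SE 0.265, edgeR adjusted p = 0.00779). In reticular-type members it was at 21.6 and 14.2 CPM against 1.14 and 0.722, with 4.24 (SE 0.463, edgeR adjusted p = 0.00177). Cdkn2a had a UMI in 30 and 39 members, and Cdkn2c in 41 and 65.

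In preosteoblast-type members the only brake or G1 gene that fell was Ccnd2, which encodes the G1 cyclin D2. It was at 97.8 and 111 CPM against 235 and 270, a log2 fold of -1.31 (SE 0.173, edgeR adjusted p = 0.00362). With the block, 5 fell in place of 1, adding Cdkn1c, Btg1, Gas1 and Klf4. Among all genes 4.74% were called lower with the block and 1.27% without it. In reticular-type members 4 fell, and 6 with the block, against 8% and 7.96% of all genes. Cdkn1c, the Cip/Kip inhibitor p57 linked to quiescence, was at 82.5 and 93.6 CPM against 256 and 217, with -1.46 (SE 0.173, edgeR adjusted p = 0.00255). The antiproliferative gene Btg2 had -1.04 (SE 0.158, edgeR adjusted p = 0.00626), the atypical cyclin Ccng2 -1.07 (SE 0.212, edgeR adjusted p = 0.0167) and Myc -1.20 (SE 0.16, edgeR adjusted p = 0.00404). Myc, a growth-promoting transcription factor, was at 58.4 and 67.2 CPM against 146 and 135. Rb1, the retinoblastoma gene, was the third that rose there, at 33.0 and 29.5 CPM against 16.8 and 15.9, with 0.89 (SE 0.185, edgeR adjusted p = 0.0194). Over the list the median log2 fold was -0.19 in preosteoblast-type and -0.09 in reticular-type cells, against -0.02 over all genes tested in each. Cdkn1a, the p53 target p21, did not pass the test in either type, at 276 and 381 CPM in preosteoblast-type members and 352 and 429 in non-cycling cells.

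**Figure D3:**
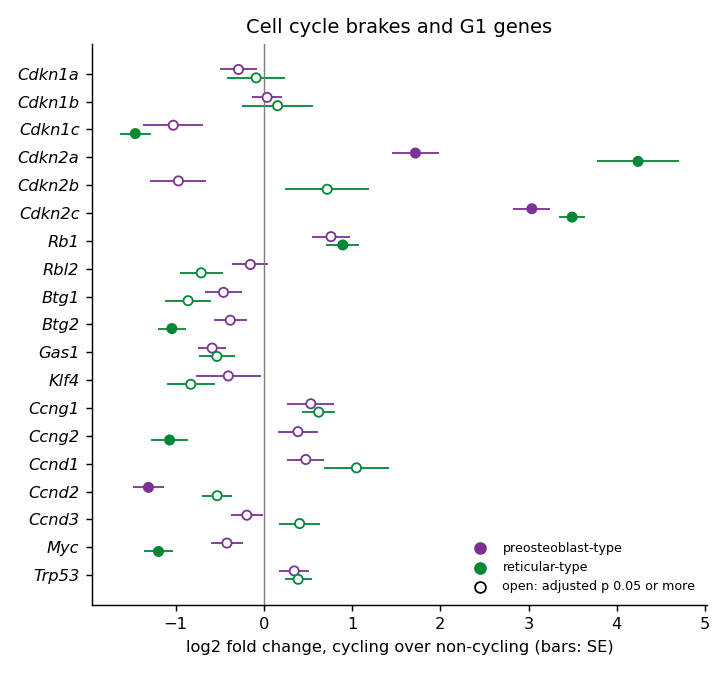
Log2 fold change of the 19 brakes and G1 genes, cycling over non-cycling cells of the same type, with the SE as bars. Purple points stand for preosteoblast-type and green points for reticular-type cells, and filled points were called by edgeR. Cdkn2a and Cdkn2c lie right of 0 in both types, Ccnd2 (-1.31) is the filled point left of 0 in preosteoblast-type cells, and Cdkn1c (-1.46), Myc, Ccng2 and Btg2 are those in reticular-type cells.

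All 10 niche cytokines had a lower share of UMIs in reticular-type members, with a median log2 fold of -1.31 over the list. Among all genes tested in reticular-type cells, 8% were called lower. These members were deeper, at medians of 20677.5 and 26749 UMIs against 12378 and 11513 in non-cycling reticular-type cells. A lower share therefore need not mean fewer UMIs per cell, and levels per cell were not compared. Cxcl12 was at 3374 and 4401 CPM in members and 8427 and 8227 in non-cycling cells, a log2 fold of -1.13 (SE 0.192, edgeR adjusted p = 0.00949). Kitl, which encodes stem cell factor, was at 426 and 386 CPM against 1051 and 1124, with -1.46 (SE 0.151, edgeR adjusted p = 0.00138). The adhesion molecule Vcam1 was at 638 and 641 CPM against 1744 and 1650, with -1.45 (SE 0.149, edgeR adjusted p = 0.00136). Fgf7 fell most, from 203 and 256 CPM to 45.7 and 48.8, with -2.32 (SE 0.197, edgeR adjusted p = 0.000605), and Csf1, the macrophage growth factor, least, with -0.63 (SE 0.164, edgeR adjusted p = 0.041). Il7, Il34, Tnfsf11, Angpt1 and Bmp4 lay between them.

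Transcription factors of the niche moved the same way in reticular-type members, 4 of the 8 tested being lower, against 8% of all genes. Ebf3, which maintains the niche, was at 151 and 153 CPM against 381 and 382, with -1.37 (SE 0.148, edgeR adjusted p = 0.00168). Cebpb had -1.25 (SE 0.169, edgeR adjusted p = 0.00421), Ebf1 -1.01 (SE 0.148, edgeR adjusted p = 0.00546) and Foxc1 -0.99 (SE 0.165, edgeR adjusted p = 0.00896). Pparg, the adipogenic factor, did not pass, at 69.8 and 54.9 CPM against 73.8 and 62.2. The reticular-type members were less purely reticular than the cells they were set against. The preosteoblast share of a cell's type UMIs had a median of 19.4% and 24.1% in cycling reticular-type cells and 7.51% and 12.3% in non-cycling ones. The part of this mix in the lower cytokine levels was not tested. Without the barcodes with blood transcripts, Tnfsf11 was no longer called (edgeR adjusted p = 0.0875) and the other 9 cytokines were. Csf1 lost the call without the Rgs5-rich barcode (edgeR adjusted p = 0.0762) and against non-cycling cells of matched depth (edgeR adjusted p = 0.0738).

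In preosteoblast-type members, where the levels of these genes were lower to begin with, Kitl was the only cytokine called. It was at 74.6 and 102 CPM against 181 and 138, with -0.87 (SE 0.207, edgeR adjusted p = 0.0482), and lost the call under 4 alternatives, among them without the highest Scrublet scores (edgeR adjusted p = 0.0639). Vcam1 was at 137 and 157 CPM against 316 and 210 (edgeR adjusted p = 0.0508). Cxcl12 was at 1040 and 643 CPM against 1862 and 929, with -0.76 (SE 0.333, edgeR adjusted p = 0.23), and its non-cycling level itself differed between the mice. With the block, 6 of the 9 tested were lower, Cxcl12 (edgeR adjusted p = 0.000861) and Vcam1 (edgeR adjusted p = 0.00859) among them. The median over the list was -0.76. Among all genes, 1.27% were called lower, and 4.74% with the block. The preosteoblast-type members were more purely preosteoblastic than the cells they were set against. The preosteoblast share of a cell's type UMIs had a median of 88.9% and 81.8% in cycling preosteoblast-type cells. In non-cycling ones it was 73.8% and 76.3%. The part of this difference in the lower levels, here and in the lists below, was not tested.

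**Figure D4:**
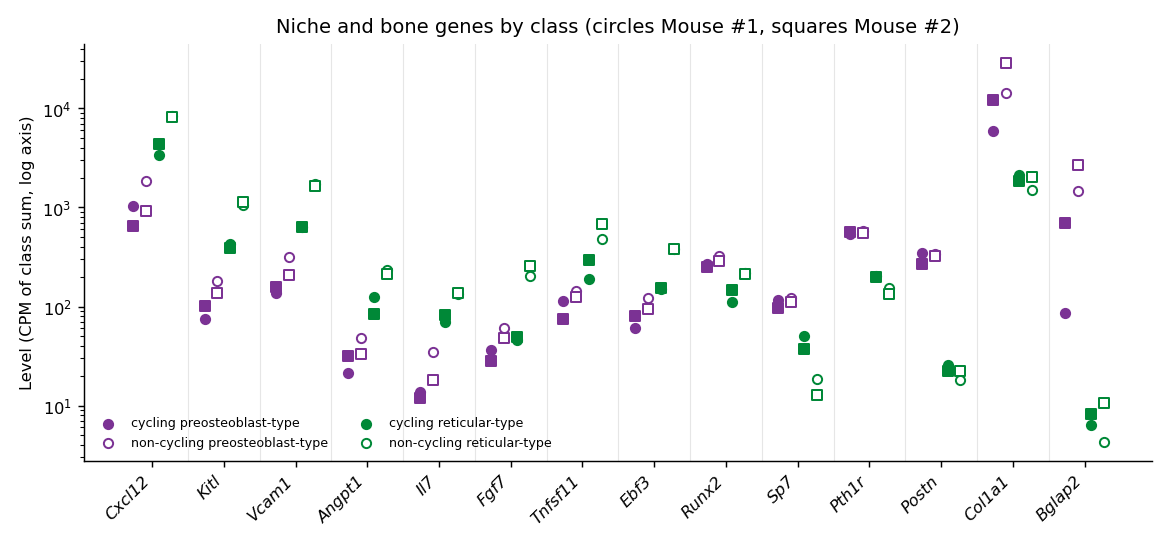
Levels (CPM, log axis) of niche and bone genes in cycling (filled) and non-cycling (open) cells of each type, with circles for Mouse #1 and squares for Mouse #2. Cxcl12, Kitl and Vcam1 lie lower in cycling than in non-cycling reticular-type cells of both mice (Kitl 426 and 386 against 1051 and 1124 CPM).

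In preosteoblast-type members 0 of the 13 osteoblast regulators tested were called by edgeR and 0 by DESeq2, with 2 at an unadjusted p under 0.05 and a median log2 fold of -0.14. With the block 1 was lower. Among all genes, 6% were called higher and 1.27% lower, and 4.74% lower with the block. A count of 0 of 13 therefore does not set this list apart. Runx2, the master regulator of the lineage, was at 266 and 252 CPM against 327 and 290, and Sp7, which acts after it, at 116 and 96.5 CPM against 123 and 111. Postn, a matrix gene of preosteoblasts, was at 346 and 270 CPM against 338 and 321. Col1a1, the main collagen of bone, was at 5924 and 12041 CPM against 14212 and 28834, with -1.31 (SE 0.415). Its edgeR adjusted p was 0.115, and 9.39e-08 with the block. The mice differed in level, while the log2 ratio within each mouse was -1.26. In reticular-type members Sp7 was higher, at 50.8 and 37.6 CPM against 18.6 and 12.7, with 1.46 (SE 0.281, edgeR adjusted p = 0.0153). Runx2 was lower there, at 112 and 145 CPM against 220 and 213, with -0.78 (SE 0.181, edgeR adjusted p = 0.0277), and lost the call without the barcodes with blood transcripts (edgeR adjusted p = 0.101).

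Among the 6 mature osteoblast genes tested in preosteoblast-type members, Col11a2 alone was called, and 3 were lower with the block. The shares of all genes called lower were 1.27% and 4.74%. Col11a2 was at 42.9 and 82.9 CPM against 246 and 489, with -2.57 (SE 0.417, edgeR adjusted p = 0.0099). Bglap2, an osteocalcin gene that shares much of its sequence with Bglap so that their UMIs may have been split in counting, was at 86.6 and 701 CPM against 1461 and 2668 (edgeR adjusted p = 0.128, and 0.000286 with the block). Bglap itself, which served to type the cells, stood at 290 and 3767 CPM against 6309 and 11959. In Mouse #2, 1 member held 4753 of 6634 Bglap UMIs, and without it Bglap was at 1112 CPM. Without the member that held most UMIs of the gene in each mouse, Bglap2 was at 70.6 and 361 CPM and Col11a2 at 18.8 and 47.3 CPM. Cells were taken from the cycling side only, so these levels had to fall and are no further evidence of a difference. The type gene Spp1, which encodes osteopontin, went the other way, at 9806 and 7050 CPM against 4935 and 2955. In Mouse #2 that difference rested on 1 member with 7057 of 12416 Spp1 UMIs, without which Spp1 was at 3146 CPM. When non-cycling cells with 50 or more UMIs per 10000 of Bglap and Bglap2 were left out, the fold of Bglap2 turned to 0.97 (edgeR adjusted p = 0.501) that of Col1a1 to 0.27 (edgeR adjusted p = 0.715), and Col11a2 lost the call at -0.48 (edgeR adjusted p = 0.528). That alternative takes mature cells from the non-cycling side only. In reticular-type members Phex, an osteocyte endopeptidase, fell with -1.95 (SE 0.327, edgeR adjusted p = 0.00908), and Car3, a carbonic anhydrase, rose with 1.51 (SE 0.394, edgeR adjusted p = 0.0409) from 9.78 and 6.92 CPM to 15.2 and 31.5. Car3 lost the call without the highest Scrublet scores (edgeR adjusted p = 0.142) and against cells of matched depth (edgeR adjusted p = 0.334).

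Skeletal stem cell markers fell where they were called. Pdgfra, a receptor of stromal progenitors, was called in both types, at 75.5 and 70.4 CPM against 134 and 125 in preosteoblast-type cells, with -0.87 (SE 0.152, edgeR adjusted p = 0.0135), and with -0.73 (SE 0.146, edgeR adjusted p = 0.0177) in reticular-type cells. Grem1, a BMP antagonist, had -1.69 (SE 0.165, edgeR adjusted p = 0.00111) in reticular-type cells, at 143 and 139 CPM against 407 and 479. In preosteoblast-type cells it was at 72.1 and 26.7 CPM against 142 and 124 (edgeR adjusted p = 0.0512, and 0.00171 with the block). The protease gene Ctsk was lower in reticular-type members, with -0.81 (SE 0.145, edgeR adjusted p = 0.0117). That made 1 of 9 tested markers lower in preosteoblast-type members, 4 with the block, and 3 of 9 in reticular-type members. The shares of all genes called lower were 1.27%, 4.74% and 8%.

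Of 13 Wnt genes tested, 1 was called lower in preosteoblast-type members, 2 with the block, and in reticular-type members 3 were lower and 1 higher. Shares of all genes were 1.27% and 4.74% lower in the former, and 8% lower and 11.5% higher in the latter. The secreted protein gene Dkk3 was lower in both, with -1.12 (SE 0.205, edgeR adjusted p = 0.0169) and -1.13 (SE 0.152, edgeR adjusted p = 0.00404). In reticular-type members the Wnt antagonist Sfrp4 fell from 969 and 1029 CPM to 425 and 328, with -1.45 (SE 0.171, edgeR adjusted p = 0.00249), and the co-receptor Lrp6 had -0.85 (SE 0.174, edgeR adjusted p = 0.0183). Wif1, another Wnt antagonist, rose from 62.0 and 38.6 CPM to 173 and 99.7, with 1.38 (SE 0.309, edgeR adjusted p = 0.0248), but was not called against cells of matched depth (0.84, edgeR adjusted p = 0.105). Lef1, a transcription factor of the pathway, was at 21.4 and 19.3 CPM in preosteoblast-type members and 16.9 and 10.4 in non-cycling cells.

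In preosteoblast-type members 0 of 7 Notch genes were called by edgeR and 0 by DESeq2, and 0 were at an unadjusted p under 0.05. With 6% of all genes called higher by edgeR and 1.27% lower, 0 calls of 7 do not set this list apart. In reticular-type members the receptor Notch2 was lower, with -0.76 (SE 0.148, edgeR adjusted p = 0.0158). The target gene Nrarp was called higher there, but it had a UMI in only 1 and 3 members and was no longer above the filter without the Rgs5-rich barcode. Growth factor receptors fell where they were called. Fgfr3 was lower in preosteoblast-type members, at 63.5 and 59.1 CPM against 108 and 90.5, with -0.73 (SE 0.163, edgeR adjusted p = 0.04). DESeq2 did not call it (adjusted p = 0.0772). With the block 4 of the 11 receptors tested were lower in these members in place of 1. The shares of all genes called lower there were 4.74% and 1.27%, and 8% in reticular-type members. Egfr, Tgfbr3 and Fgfr2 were lower in reticular-type members, with -1.12 (SE 0.173, edgeR adjusted p = 0.0067), -1.32 (SE 0.147, edgeR adjusted p = 0.002) and -0.65 (SE 0.144, edgeR adjusted p = 0.0247), and Fgfr2 lost the call without the barcodes with blood transcripts (edgeR adjusted p = 0.0754).

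Acta2, proposed as a marker of these cells, was raised in a minority of them. It had a UMI in 31 of 75 and 46 of 104 members, and 5 or more UMIs per 10000 in 11 and 15. At 5000 UMIs per cell, 26.4% and 31.2% of members had a UMI, against 12.6% and 14.3% of non-cycling preosteoblast-type cells, 1.57% and 2.48% of non-cycling reticular-type cells and 4.21% and 5.73% of blood-gate cells, which should lack it. In preosteoblast-type members it was at 389 and 145 CPM against 113 and 92.1, with 1.33 (SE 0.396, edgeR adjusted p = 0.0955, and 0.00566 with the block). In reticular-type members it was at 642 and 222 CPM against 8.06 and 17.5, with 4.99 (SE 0.591, edgeR adjusted p = 0.00254). Without the Rgs5-rich barcode it was at 188 and 222 CPM there, with 3.92 (edgeR adjusted p = 0.0012). These levels still rested on few members. In Mouse #1, 1 member with blood transcripts held 77 of the 133 UMIs left, and in Mouse #2, 1 member held 88 of 218. With all barcodes, 3 of 34 and 7 of 31 reticular-type members had 5 or more UMIs per 10000.

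Of the 11 mural markers tested in preosteoblast-type members, 1 was called higher, and with the block 3 were higher and 1 lower. Shares of all genes there were 6% higher and 1.27% lower, and 8.76% and 4.74% with the block. Without the block, the mural count was thus near the share of all genes. Of the 14 tested in reticular-type members 6 were higher and 2 lower, against 11.5% and 8% of all genes. Tpm2, a tropomyosin, was higher in both types, at 438 and 348 CPM against 193 and 212 in preosteoblast-type cells, with 0.91 (SE 0.175, edgeR adjusted p = 0.02), and at 440 and 319 CPM against 45.5 and 52.4 in reticular-type cells, with 2.91 (SE 0.194, edgeR adjusted p = 0.000196). It had a UMI in 67 of 75 and 94 of 104 members. Myl9, a myosin light chain, was higher in reticular-type members with 1.39 (SE 0.172, edgeR adjusted p = 0.00301). Of the 6 mural markers called higher in reticular-type members, Cspg4, Mcam and Tagln lost the call without the Rgs5-rich barcode (edgeR adjusted p = 0.23, 0.0925 and 0.0821). Des and the pericyte receptor Pdgfrb were lower there, with -2.49 (SE 0.242, edgeR adjusted p = 0.00109) and -0.59 (SE 0.148, edgeR adjusted p = 0.0363). Pdgfrb was not called against cells of matched depth (edgeR adjusted p = 0.199).

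Markers of other cells differed in level between lists. The 10 periosteal and fibroblast markers summed to 1017 and 988 CPM in members, most of it from Col12a1 at 636 and 644 CPM and Gsn at 273 and 306 CPM. They were at 1232 and 1365 CPM in non-cycling preosteoblast-type cells. Of the markers tested, 0 of 5 were called in preosteoblast-type members by edgeR and 0 by DESeq2, with 0 at an unadjusted p under 0.05. In reticular-type members 1 of 6 was called, lower. Shares of all genes were 6% higher and 1.27% lower in preosteoblast-type members, and 11.5% higher and 8% lower in reticular-type members. The 8 endothelial markers summed to 13 and 16 CPM, and of the 8 chondrocyte markers Acan, Matn1, Col10a1 and Ucma had 0 UMIs in both mice. The chondrocyte genes Sox9, at 18.4 and 36.8 CPM, and Col2a1, at 53.7 and 37.5 CPM, were detected. The 13 blood markers measured summed to 1546 and 2727 CPM, of which 5 members held 96.2% and 98.0%. S100a8 was called higher in reticular-type members, with 5.89 (SE 0.357, edgeR adjusted p = 0.000123), as 1 of 6 blood markers of the 7 tested. Without those barcodes its fold was -0.54 (edgeR adjusted p = 0.17). S100b, a calcium-binding protein gene on the Schwann cell list, was lower in preosteoblast-type members, at 118 and 135 CPM against 241 and 234, with -0.94 (SE 0.154, edgeR adjusted p = 0.0102).

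tdTomato marked fewer cycling than non-cycling reticular-type cells. eGFP had a UMI in 34 of 34 and 31 of 31 cycling ones, a looser measure that 27.6% and 41.6% of blood-gate cells also met. The median of eGFP was 54.2 and 48.1 UMIs per 10000 in cycling and 111 and 100 in non-cycling reticular-type cells. In preosteoblast-type members eGFP had a UMI in 39 of 41 and 61 of 73. Its medians there were 10.8 and 3.74 UMIs per 10000, against 18.4 and 4.89 in non-cycling preosteoblast-type cells. tdTomato is transcribed after recombination in Cxcl12-iCreER cells and in their descendants, and a cell was counted as positive above the 99th percentile of blood-gate cells of its mouse, which was 4.60 and 4.91 UMIs per 10000. By that rule 3 of 75 members, or 4% (0.833 to 11.2%), and 6 of 104, or 5.77% (2.15 to 12.1%), were positive. Among reticular-type cells these were 3 of 34 members, or 8.82% (1.86 to 23.7%), against 38.3% (35.6 to 40.9%) of non-cycling cells in Mouse #1. In Mouse #2 these were 4 of 31, or 12.9% (3.63 to 29.8%), against 46.7% (44.8 to 48.6%). The intervals of cycling and non-cycling reticular-type cells did not overlap in either mouse. They cover counting error only, and the shares were not tested. As given above, the reticular-type members were less purely reticular than non-cycling ones. The part of this mix in the lower tdTomato share was not tested. In preosteoblast-type members 0 of 41 and 2 of 73 were positive, which overlapped with 1.39% (0.287 to 4.01%) and 6.03% (4.19 to 8.37%) of non-cycling cells.

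**Figure D5:**
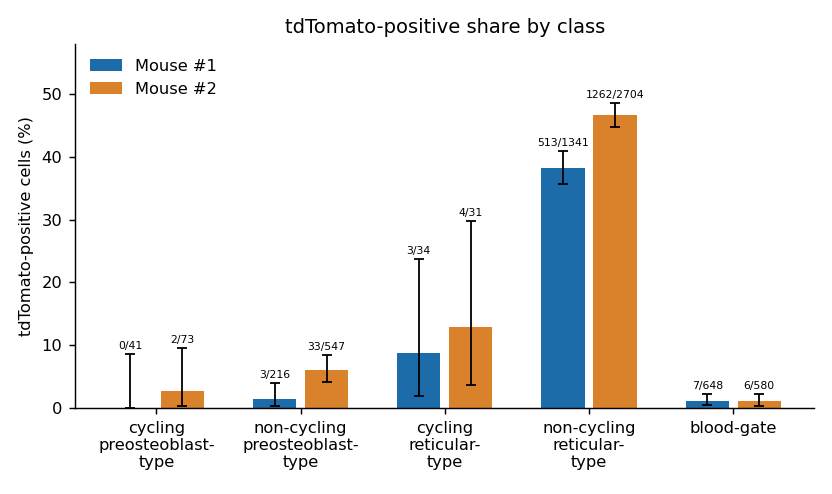
Share of tdTomato-positive cells (%) by class and mouse, with exact 95% binomial intervals as error bars and cell numbers above them. Cycling reticular-type cells (8.82 and 12.9%) stand below non-cycling reticular-type cells (38.3 and 46.7%), and the blood-gate cells show the background (1.08 and 1.03%).

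After thinning, a tdTomato UMI was found in 18.8% and 30.0% of cycling reticular-type cells, 46.4% and 56.0% of non-cycling ones and 9.62% and 11.9% of blood-gate cells. Summed over reticular-type members, tdTomato was at 100 and 280 CPM against 793 and 1078, with -2.31 (SE 0.455, edgeR adjusted p = 0.0162). eGFP, read from the Cxcl12 allele, was at 5147 and 6713 CPM against 12023 and 11318, with -1.01 (SE 0.193, edgeR adjusted p = 0.0148), beside the -1.13 of Cxcl12 itself. iCreER had 0 UMIs in members of both mice. Against 13.6 and 18.5 CPM in non-cycling reticular-type cells, the 3 counts that a 0 allows per library made it at least 3.56-fold and 6.06-fold lower in reticular-type members. In preosteoblast-type members tdTomato was at 12.9 and 65.3 CPM against 65.2 and 122 (edgeR adjusted p = 0.253, and 0.00501 with the block). The share without the barcodes with blood transcripts was 2 of 30 and 4 of 27 reticular-type members.

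All members together were also set against each non-cycling type, a comparison that includes the mix of types. Against preosteoblast-type cells, 1222 of 12443 genes were higher (9.82%) and 712 lower (5.72%), and 7 of 13 osteoblast regulators were lower. Against reticular-type cells, 2464 were higher (19.8%) and 2374 lower (19.1%). All 10 niche cytokines were lower and 8 of 13 osteoblast regulators higher. These comparisons share the cycling sums of both types of members, so their directions are not independent. Against plain CPM, the scaling of edgeR shifted the median gene by -0.11 in the comparison with preosteoblast-type cells and by less in the others.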

How the data were processed

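Single-cell 3′ libraries of sorted femoral marrow cells were analysed, 1 per mouse. The authors deposited unfiltered UMI counts for every feature and barcode. Per the file headers they come from Cell Ranger 3.0.0. The submitters' processing notes name mm10 and Seurat, and the study's methods name added reporter sequences. The annotation release is not given in the sources used here. The libraries held 54940400 and 88790688 UMIs. Reporter features that share stretches could lose UMIs in counting.

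The members and lists were chosen with earlier results of these data known. Counts were summed per mouse and class, kept by filterByExpr, scaled by TMM and tested with edgeR 4.0.16 in R 4.3.3, without a block for mouse. In the joint comparisons all 6 sums shared 1 fit. The 12 gate genes, the 16 type genes and the cell cycle lists got no test. Named genes were those of the lists and, outside them, the 10 largest rises and falls among called genes of the same direction in both mice with at least 20 CPM in the higher class, without gene models; 1 gene that the rule names is not reported here. The block is the alternative, as both sums of a pair come from the same animal (correlation of deviations across genes 0.191 to 0.351). DESeq2 1.42.0, other filters, depth-matched cells, a lower and a higher cycle threshold and Scrublet (scanpy 1.11.5) were alternatives. Doublets were kept: Scrublet called only 1 and 3 cells by its own threshold, so its alternative left out the 60 and 168 cells with the highest scores instead. The fits were tested on simulated data.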

Additional observations from a re-analysis of the deposited data

How the results depend on the processing

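Without a filter on low counts, the number of called genes rose to 3095 for all members against preosteoblast-type cells, to 1571 within preosteoblast-type cells and to 3802 within reticular-type cells, on more genes tested. With the mouse as a replicate block it was 1436 within preosteoblast-type cells, and the block changed the other counts by under 1.5 times. DESeq2, depth matching, a limit of 4 cycle UMIs for comparison cells, Scrublet scores, stricter cell limits and 10 cycle UMIs kept all 4 counts within 1.5 times. The number of members ranged from 75 to 104 when 1 mouse was left out. The mean tdTomato-positive share of the mice was 6.72% with 3 cycle UMIs and 6.87% with 2000 genes and 10% mitochondrial UMIs. Of 68 gene results printed, 46 kept their direction and side of the threshold under every alternative run. Only 3 turned direction, each past no threshold afterwards. Col1a1 and Bglap2 within preosteoblast-type cells turned to 0.27 and 0.97 when comparison cells with high Bglap were left out, and S100a8 within reticular-type cells to -0.54 when barcodes with blood marker UMIs were left out. These alternatives, the Rgs5-rich barcode and the reticular comparison were chosen after seeing the data. In Mouse #1 the depth-matched preosteoblast-type cells were all 216, so matching there changed only Mouse #2. With 1 mouse left out no residual degrees of freedom remained, so single genes gave log2 ratios with no test.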
